A study of Drosophila melanogaster with 64 samples.

Results

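The genes examined here are 36 receptors for neuropeptides and peptide hormones, of 17752 genes in the table of Drosophila melanogaster females of the LHM strain. Members were chosen by name, as the rows whose FlyBase identifier maps to a listed receptor symbol, and 36 of 36 names had a row. The females were 3 to 8 days old. Tissue was taken at 6 h or 24 h after mating or from unmated females, and each tissue library pooled tissue of many females. The samples were the 5 tissues of the female reproductive tract (FRT), which are the bursa, oviduct and seminal receptacle, here called epithelial, and the spermathecae and parovaria, here called glandular. The fat body attached to the FRT was a sixth tissue, and the unmated whole female, with ovaries but without the lower FRT, served as the body reference. The labels name no transgene or introduced allele in any group. The questions were which receptors each tissue expressed above 2 CPM and which receptors changed after mating. CPM, or counts per 1000000, is a gene's count divided by the total of its library, and a gene was called expressed in a group when at least 2 of its libraries exceeded 2 CPM.

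Neuropeptides and peptide hormones are cut from longer precursors and released by neurons, endocrine cells or other secretory cells. The receptors listed here are G protein-coupled receptors, which sit in the membrane of the responding cell and act through cyclic AMP, calcium or related messengers. In insect reproductive organs such peptides are known for setting muscle contraction, secretion and fluid transport, and in the fat body for releasing stored fuel. A transcript level shows which tissue could make a receptor, not whether the protein or its peptide is present. In pooled tissue, fewer cells of a type and less RNA per cell cannot be told apart.

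The 64 libraries held between 12177864 and 26860149 counts, which sets the precision of the low values below. They came from 2 sequencing runs of 26 and 38 libraries. Whole females, the fat body at 24 h and oviducts at 6 h were in run 2 only, so within-run values are given beside the results discussed at length. Muscle marker transcripts separated the epithelial tissues from the other tissues: 10 muscle genes had a mean sum of 30847 CPM in unmated bursae, 21359 in oviducts and 15386 in seminal receptacles, but 988 in spermathecae, 1292 in parovaria and 113 in fat body. Libraries of bursae and oviducts overlapped in this sum, at 22075 to 39312 and 19169 to 25740 CPM. Those of spermathecae and parovaria also overlapped, at 804 to 1198 and 1005 to 1645 CPM. A list of 8 fat body genes summed to 71199 CPM in the fat body and to between 7536 and 24213 in the FRT tissues. Gut markers reached 306 CPM in 1 unmated spermathecal library, against 1.32 to 3.00 in the other 3.

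**Figure D1:**
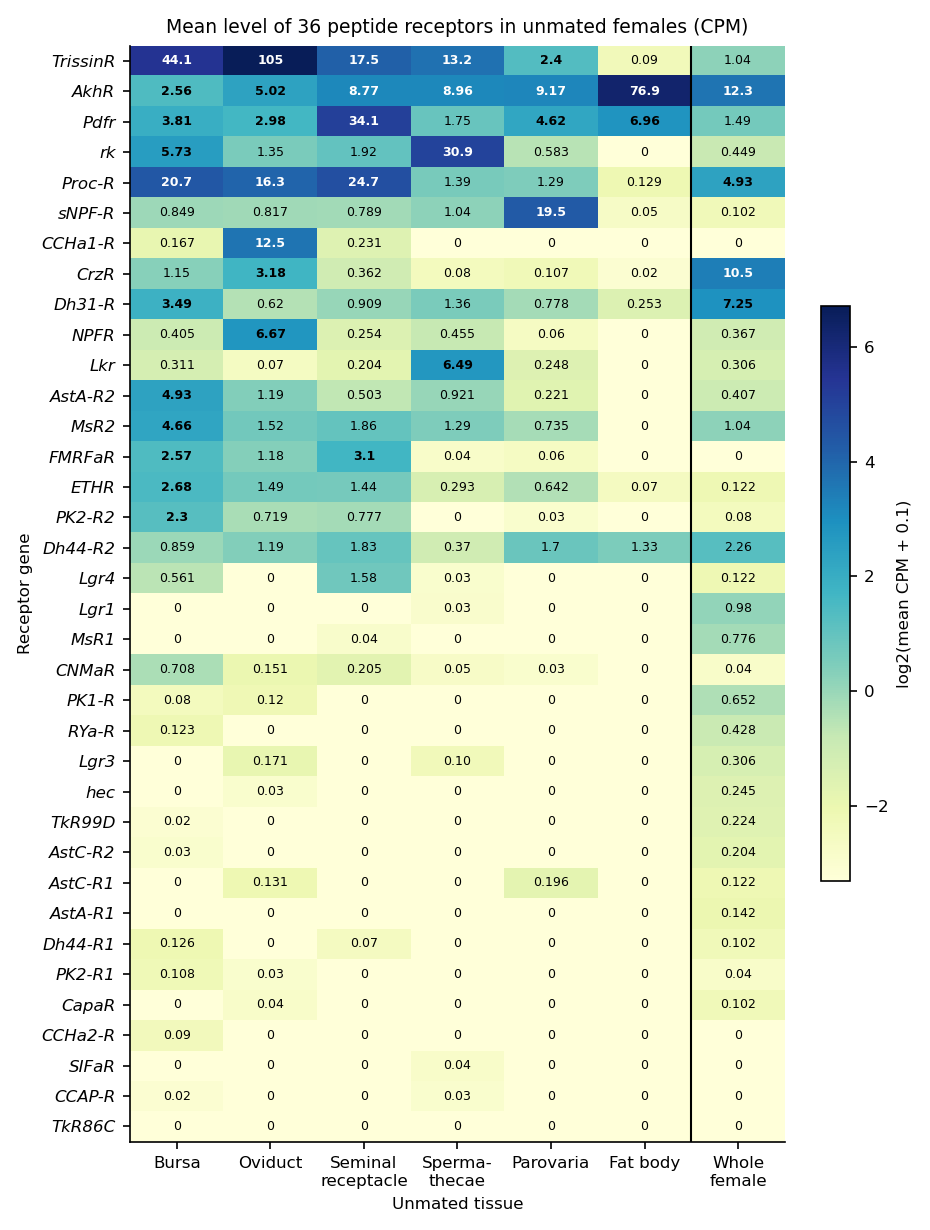
Mean CPM of the 36 receptors (rows, ordered by their highest mean) in 6 unmated tissues and the whole female (columns). Each cell prints the mean over 2 to 4 libraries, the colour is log2(mean CPM + 0.1), and bold type marks a receptor expressed above 2 CPM in at least 2 libraries of the group; 16 rows hold a bold cell in a tissue.

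Of the 36 receptors, 16 were expressed in at least 1 unmated tissue, and no other receptor reached the threshold after mating. The unmated bursa expressed 11 of them, the oviduct 7, the seminal receptacle 5, the spermathecae 4, the parovaria 4 and the fat body 2, against 4 in the whole female. The share of the 36 was 30.6% in the bursa, where 43.8% of all genes passed the same threshold. The oviduct had 19.4% of receptors and 43.2% of all genes, the seminal receptacle 13.9% and 44.3%. Spermathecae and parovaria each had 11.1% of receptors, with 40.6% and 39.8% of all genes. The fat body had 5.56% and 31.0%, and the whole female 11.1% and 44.9%. From unmated to 6 h and 24 h, the sets numbered 11, 9 and 9 for bursae, 7, 6 and 5 for oviducts, 5, 6 and 6 for seminal receptacles, 4, 5 and 6 for spermathecae, 4, 3 and 3 for parovaria and 2, 2 and 1 for fat bodies. The shares of all genes at these times were 43.8%, 43.3% and 42.8% for bursae and 43.2%, 41.6% and 42.0% for oviducts. They were 44.3%, 45.1% and 44.0% for seminal receptacles and 40.6%, 41.0% and 42.1% for spermathecae. Parovaria had 39.8%, 38.6% and 39.9%, and fat bodies 31.0%, 29.2% and 24.5%. The 6 h bursa set had CrzR but not FMRFaR, MsR2 or Pdfr. AkhR, the receptor for adipokinetic hormone, was expressed in all 6 tissues, and AkhR and TrissinR, the receptor for the peptide trissin, in all 5 FRT tissues. There were 10 receptors expressed in a single unmated tissue. Of the 16, 12 were not expressed in the whole female, and the whole female expressed none that a tissue did not.

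Divided by annotated exon length, so that levels of different genes can be compared, a different receptor led in most tissues. The leading receptor was TrissinR in the oviduct, at a mean of 28.9 CPM per kilobase of exon, and in the bursa, at 12.1. Pdfr led in the seminal receptacle at 7.31, rk in the spermathecae at 5.74, sNPF-R in the parovaria at 4.11 and AkhR in the fat body at 24.2 CPM per kilobase. In the whole female AkhR led at 3.85. Runners-up were close in the seminal receptacle, where Proc-R had 6.52, and distant in the oviduct, where CCHa1-R had 4.72.

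**Figure D2:**
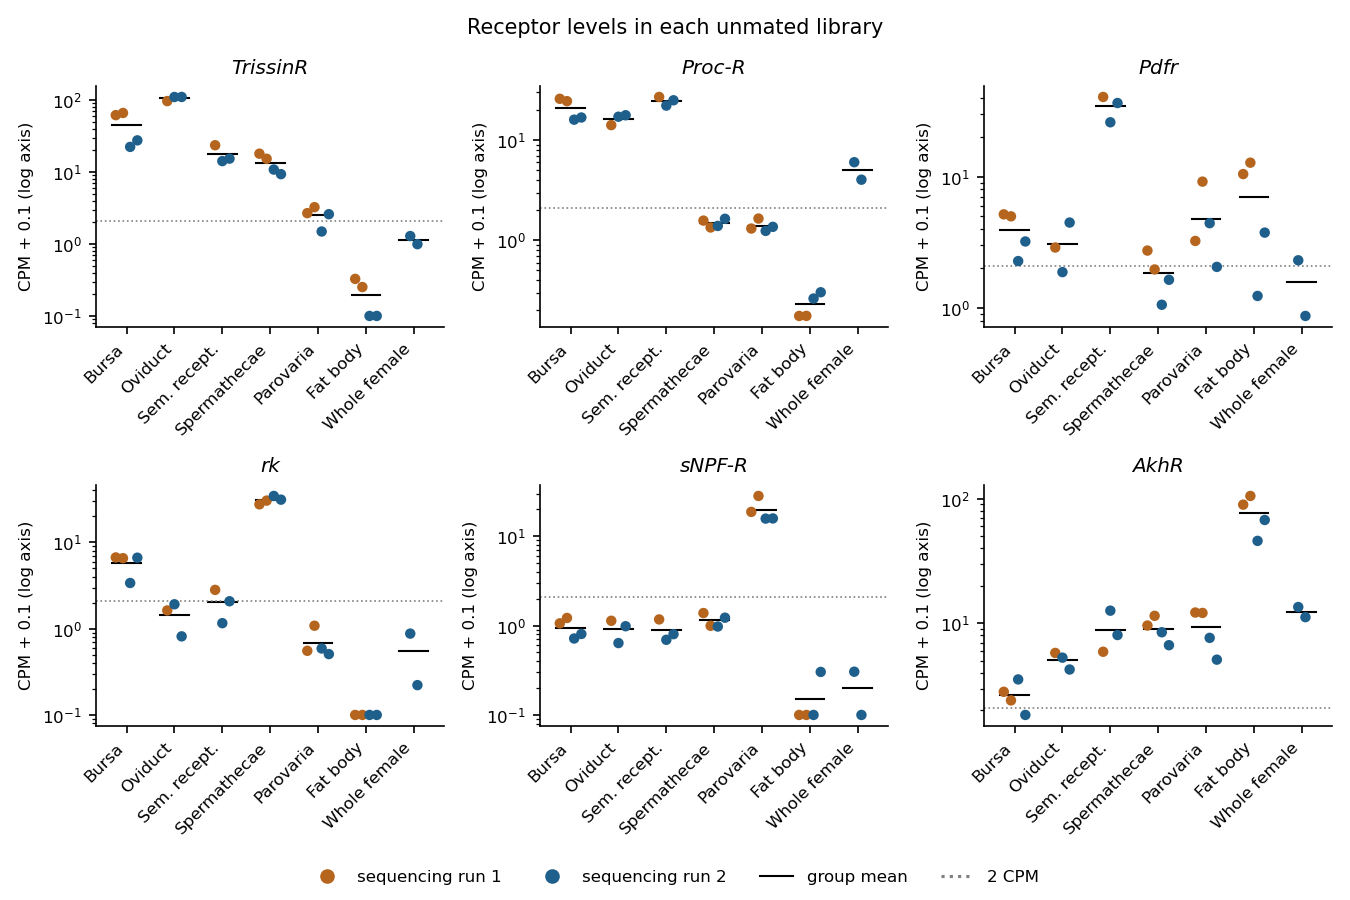
CPM + 0.1 on a log axis for 6 receptors in each unmated library, with tissues and then the whole female along the horizontal axis (Sem. recept. is the seminal receptacle). Each point is 1 library coloured by sequencing run, the bar is the group mean and the dotted line is 2 CPM; sNPF-R passes the line in the parovaria alone, and AkhR is highest in the fat body.

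TrissinR (FBgn0085410; chromosome 2L, 5824004 to 5856767, plus strand, of the Release 6 assembly) had the highest level per kilobase of any receptor in any unmated tissue. It stood at 96.1, 110 and 110 CPM in the 3 unmated oviduct libraries and at 61.2, 65.6, 22.1 and 27.3 in bursae. Seminal receptacles had 23.3, 14.0 and 15.2 CPM, and spermathecae 17.8, 15.1, 10.7 and 9.20. The parovaria had 1.39 to 3.14 CPM, the fat body 0 to 0.227 and the whole female 0.892 and 1.19. Every oviduct library was above every other library, and the oviduct, bursa and seminal receptacle means fell in that order. The neighbours in this order did not differ past the threshold of the pairwise edgeR test, and the pair nearest to it was the parovaria over the fat body, with a log2 fold change (log2FC) of 3.68 (SE 0.56, Bonferroni-adjusted p = 0.0201). The spermathecae stood over the parovaria by 2.1 (SE 0.35, Bonferroni-adjusted p = 0.0578). In the bursa the first pair of values came from run 1 and the second from run 2, and the oviduct exceeded the bursa 1.51-fold in run 1 and 4.43-fold in run 2.

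AkhR (FBgn0025595), whose hormone mobilizes lipid and carbohydrate from the fat body, lies on chromosome 2L, from 6711286 to 6716186 on the minus strand. It measured 89.4, 105, 45.8 and 67.3 CPM in the unmated fat body, against 11.1 and 13.4 in the whole female. Means in the other tissues were 9.17 CPM (parovaria), 8.96 (spermathecae), 8.77 (seminal receptacle), 5.02 (oviduct) and 2.56 (bursa). The fat body exceeded the parovaria by a log2FC of 4.0 (SE 0.28, adjusted p = 5.64e-08), with no overlap between libraries, and by 8.06-fold in run 1 and 9.0-fold in run 2. None of the later neighbours in the order differed past the threshold. Fat body marker sums averaged 21507 CPM in unmated parovaria, 15154 in spermathecae, 24213 in seminal receptacles, 14825 in oviducts and 7536 in bursae. The part of attached fat body in the AkhR values of these tissues was not tested.

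Proc-R (FBgn0029723) encodes the receptor for proctolin, a peptide known to stimulate visceral muscle. The gene lies on chromosome X, from 4707916 to 4729487 on the plus strand. It had 26.9, 22.1 and 25 CPM in the seminal receptacle, 25.8, 24.4, 15.9 and 16.8 in the bursa and 14.1, 17.1 and 17.7 in the oviduct. Bursa values overlapped those of both other epithelial tissues, while seminal receptacle libraries were all above oviduct libraries; neither pair of neighbours differed past the threshold. The spermathecae (1.24 to 1.54 CPM) and parovaria (1.14 to 1.55) lay far below them, and the fat body had 0.0757 to 0.203. The oviduct stood above the spermathecae by a log2FC of 2.91 (SE 0.23, adjusted p = 4.77e-07), and the parovaria above the fat body by 2.38 (SE 0.32, adjusted p = 0.00326). The 3 unmated tissues where Proc-R passed 2 CPM were also those with the high muscle marker sums given above, and the part of muscle in this order was not tested.

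Pdfr (FBgn0260753), the receptor for pigment-dispersing factor, which is best known from the circadian clock, is on chromosome X, from 2552206 to 2578640 on the plus strand, and had its highest levels in the seminal receptacle. Its libraries there had 40.3, 25.8 and 36.3 CPM. The fat body had 10.4 and 12.7 CPM in run 1 but 1.14 and 3.65 in run 2. Means were 4.62 CPM for parovaria, 3.81 for bursae, 2.98 for oviducts and 1.75 for spermathecae, against 1.49 for the whole female. The seminal receptacle did not overlap any other tissue, and it exceeded the fat body 3.50-fold in run 1 and 13.0-fold in run 2. With edgeR's normalization by the trimmed mean of M-values (TMM), which raised fat body values relative to the FRT tissues, that difference was a log2FC of 0.60 (SE 0.48, adjusted p = 1), against 2.29 when libraries were scaled by their totals.

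In each glandular tissue a receptor led that was lower everywhere else. rk (FBgn0003255), also called rickets, is the receptor of bursicon, the hormone that hardens and tans the cuticle, and lies on chromosome 2L, from 13982743 to 14001248 on the minus strand. It had 27.5, 30.4, 34.5 and 31.2 CPM in the spermathecae, against 3.29 to 6.60 in the bursa and 2.72 or less in each other unmated tissue library. The spermathecae exceeded the bursa by a log2FC of 2.86 (SE 0.27, adjusted p = 7.63e-05), 4.44-fold in run 1 and 6.68-fold in run 2. The fat body had no rk read in 4 libraries, which made the spermathecal level at least 1052-fold higher, with 3 counts over the group as the floor. Exons of rk overlap 527 bases of NimC2 on the opposite strand, 9.78% of the rk exons. NimC2 itself had 0.112 CPM in the unmated spermathecae.

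Lkr (FBgn0035610), the leucokinin receptor, which is known for controlling fluid secretion in renal tubules, passed 2 CPM in the spermathecae alone. The gene is on chromosome 3L, from 5512421 to 5529341 on the minus strand. Its 4 spermathecal libraries had 6.24, 5.48, 6.67 and 7.58 CPM, and the highest library of any other unmated tissue had 0.539 in the bursa. The spermathecae exceeded the bursa by a log2FC of 4.79 (SE 0.66, adjusted p = 0.0117). The spermathecal library with the gut transcripts had the first of its 4 Lkr values. The part of gut or tubule carry-over in the Lkr values was not tested.

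sNPF-R (FBgn0036934), the receptor for short neuropeptide F, a peptide known from feeding control, passed 2 CPM in the parovaria alone among the unmated groups. The gene is on chromosome 3L, from 20058511 to 20089007 on the minus strand. Parovarian libraries had 18.6, 28.1, 15.6 and 15.7 CPM. Spermathecae, bursa, oviduct and seminal receptacle had means of 1.04, 0.849, 0.817 and 0.789 CPM, the fat body 0.0507 and the whole female 0.102. The log2FC of the parovaria over the spermathecae was 4.55 (SE 0.38, adjusted p = 1.31e-06), with ratios of 21.5 in run 1 and 15.7 in run 2.

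In the oviduct the receptors CCHa1-R and NPFR stood out beside TrissinR. CCHa1-R (FBgn0050106), the receptor for CCHamide-1, had 9.89, 14.6 and 13.0 CPM in the oviduct and 0.191 to 0.254 in the seminal receptacle, a log2FC of 5.61 (SE 0.47, adjusted p = 0.00142). It had no read in any unmated library of the spermathecae, parovaria, fat body or whole female, so the oviduct was at least 414-fold, 424-fold, 425-fold and 204-fold higher, with 3 counts over each group as the floor. NPFR (FBgn0037408), the receptor for neuropeptide F, had 4.20, 7.81 and 7.99 CPM in the oviduct and a mean of 0.455 in the spermathecae, the next tissue. That pair had a log2FC of 3.24 (SE 0.54, adjusted p = 0.126). CrzR, the corazonin receptor, had 2.71, 3.35 and 3.49 CPM in the oviduct and was more abundant in the whole female, at 10.6 and 10.4.

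The bursa carried the largest set, at low levels. Besides TrissinR, Proc-R, rk, Pdfr and AkhR it expressed AstA-R2 (allatostatin A receptor, mean 4.93 ± 1.96 CPM, SD, n = 4), MsR2 (receptor for myosuppressin, which is known to relax visceral muscle, 4.66 ± 0.979), Dh31-R (diuretic hormone 31 receptor, 3.49 ± 1.12), ETHR (ecdysis triggering hormone receptor, 2.68 ± 0.788), FMRFaR (FMRFamide receptor, 2.57 ± 0.467) and PK2-R2 (a pyrokinin receptor, 2.30 ± 1.25). All 6 of these receptors were lower in both run 2 libraries than in both run 1 libraries. PK2-R2 had 3.57 and 3.16 CPM in run 1 and 1.03 and 1.45 in run 2, and FMRFaR, with the closest runs, had 2.95 and 2.73 in run 1 and 1.89 and 2.70 in run 2. FMRFaR was also expressed in the seminal receptacle, at 3.90, 1.74 and 3.67 CPM, and had no read in the fat body or the whole female. Dh31-R was higher in the whole female, at 8.34 and 6.16 CPM.

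Differences among the 6 unmated tissues were tested in 1 fit with edgeR's quasi-likelihood F test. Of the 16 receptors tested, 13 differed at an adjusted p of at most 0.01, and of all 8545 genes tested 61.2% did. Of the 16, 10 had passed the 2 CPM filter in a single unmated tissue, so the filter favoured a difference, and this count and those of single tissues below are descriptions. The 3 that did not pass were Dh31-R (adjusted p = 0.672), ETHR (0.248) and PK2-R2 (0.0135). Run 2 alone called 6 (AkhR, CCHa1-R, Proc-R, rk, sNPF-R and TrissinR), and 25.7% of all genes. Against the mean of the other 5 tissues, the bursa was higher in 7 receptors (AstA-R2, FMRFaR, MsR2, PK2-R2, Proc-R, rk and TrissinR, background 13.5% of genes) and lower in AkhR (background 7.96%). The contrast averages log values, and for rk it joined the spermathecae at 30.9 CPM, above the bursa at 5.73, with the parovaria at 0.583 and a fat body without a read. The oviduct was higher in 5 (CCHa1-R, CrzR, NPFR, Proc-R and TrissinR, background 8.96%) and lower in AkhR (background 5.71%), and the seminal receptacle was higher in FMRFaR, Pdfr and Proc-R (background 10.4%). The spermathecae were higher in Lkr and rk (background 9.51%) and lower in Proc-R (background 6.46%). The parovaria were higher in sNPF-R (background 9.05%), by a log2FC of 5.69 (SE 0.23). The fat body was higher in AkhR (background 26.6%), by 5.13 (SE 0.17), and lower in MsR2, Proc-R, rk and TrissinR (background 26.2%). With libraries scaled by their totals, the median of all genes in the fat body comparison moved to -1.93, against -0.428 with TMM, and AkhR there stood at 3.63. The lower AkhR of the oviduct lost its call under that scaling (log2FC -1.09, adjusted p = 1).

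The glandular tissues were also set against the epithelial ones. AkhR (log2FC 1.57, SE 0.17, adjusted p = 0.000171), Lkr (3.63, SE 0.48), rk (1.50, SE 0.20) and sNPF-R (3.15, SE 0.25) were higher in the glandular tissues, where 12.1% of all genes were. CCHa1-R, FMRFaR, PK2-R2, Proc-R (log2FC -3.21, SE 0.15) and TrissinR (-2.25, SE 0.23) were lower, as were 14.9% of all genes. For 3 of the 4 higher receptors 1 gland carried the excess: rk had a mean of 0.583 CPM in the parovaria, below all 3 epithelial tissues, Lkr had 0.248 there, against 0.311 in the bursa, and sNPF-R had 1.04 in the spermathecae, against 0.849 in the bursa. AkhR had 9.17 and 8.96 CPM in the glands, against 8.77 in the seminal receptacle. The part of attached fat body in its difference was not tested. Lkr, sNPF-R, CCHa1-R and PK2-R2 had passed the 2 CPM filter in a single unmated tissue, so the filter favoured their direction. With library totals the median of all genes in this contrast was -0.711, against -0.0113 with TMM, and AkhR, Lkr and rk then lost their calls (adjusted p = 1, 0.0656 and 1) while sNPF-R kept its own at 2.46 (adjusted p = 0.00025).

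Each tissue was also set against the body reference. At an adjusted p no higher than 0.001 and a log2FC of 2 or more, a single receptor was tissue-biased, AkhR in the fat body (log2FC 5.28, SE 0.33, adjusted p = 0.000182). The background was 2.44% of genes in the fat body. Among FRT tissues it was 0.761% for parovaria, 0.643% for spermathecae, 0.0671% for seminal receptacles, 0% for oviducts and 0.897% for bursae. That call rested on the scaling and on single libraries. With library totals the log2FC of AkhR was 2.65 (adjusted p = 1) and the median of all genes -3.19, against -0.534 with TMM. Without fat body replicate 1 or 4 the adjusted p of AkhR was 0.00113 and 0.0011, and without whole female replicate 1 or 2 it was 0.0374 and 0.0351, with the lone whole female library assumed to vary like the fat body libraries. At an adjusted p of at most 0.01, 2 more receptors stood above the whole female, TrissinR in the oviduct (log2FC 7.33, SE 0.28, adjusted p = 0.00434, background 0.306%) and sNPF-R in the parovaria (9.14, SE 0.61, adjusted p = 0.007, background 2.70%). With library totals their adjusted p was 0.0151 and 0.086. rk in the spermathecae followed (7.52, SE 0.54, adjusted p = 0.018). TrissinR, sNPF-R and rk had passed the 2 CPM filter in the tissue but not in the whole female, so the filter favoured their direction. With the tissue libraries of run 2 alone, the run of both whole female libraries, the log2FC was 5.10 for AkhR (adjusted p = 4.92e-05), 7.40 for TrissinR (0.0136), 9.02 for sNPF-R (0.77) and 7.59 for rk (0.28).

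After mating, no receptor was called in any tissue by edgeR's quasi-likelihood test at a Bonferroni-adjusted p of at most 0.01. The receptors tested, those expressed at any time in the tissue, numbered 12 for the bursa, 7 for the oviduct, 6 each for the seminal receptacle and spermathecae, 4 for the parovaria and 2 for the fat body. Few genes of any kind were called. The background at 6 h was 1.15% of genes for the bursa, 0.0256% for the oviduct, 0.0246% for the seminal receptacle, 0.289% for the spermathecae (0.157% higher and 0.131% lower), 0.0687% for the parovaria and 0.0176% for the fat body. At 24 h it was 0.125%, 0%, 0%, 0.0656% (0.0525% higher and 0.0131% lower), 0.0137% and 0% in the same order. For 24 h against 6 h it was 0.689% (0.0877% higher and 0.601% lower), 0.0128%, 0%, 0.157% (0.0656% higher and 0.0918% lower), 0.0275% and 0%. An unadjusted p under 0.05 was reached at 6 h by 6 bursal receptors, 5 of them lower, by 2 of the seminal receptacle, both lower, by 3 of the spermathecae, 2 of them lower, and by 0 in the other tissues. Of all genes tested, 39.4% reached it for the bursa (19.4% lower), 11.8% for the seminal receptacle (4.36% lower) and 13.2% for the spermathecae (6.93% lower), with 22.2% for the oviduct, 10.3% for the parovaria and 19.3% for the fat body. At 24 h it was reached by 3 in the bursa and 1 each in the oviduct, seminal receptacle, parovaria and fat body, with 0 in the spermathecae, where the shares of all genes were 7.57% (bursa), 6.81% (oviduct), 2.94% (seminal receptacle), 6.90% (parovaria), 14.1% (fat body) and 9.43% (spermathecae). For 24 h against 6 h the numbers were 3 for the bursa, 2 for the oviduct, 1 for the seminal receptacle, 3 for the spermathecae, 0 for the parovaria and 1 for the fat body, beside 27.6%, 23.4%, 8.34%, 13.1%, 12.8% and 16.7% of all genes in the same order.

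**Figure D3:**
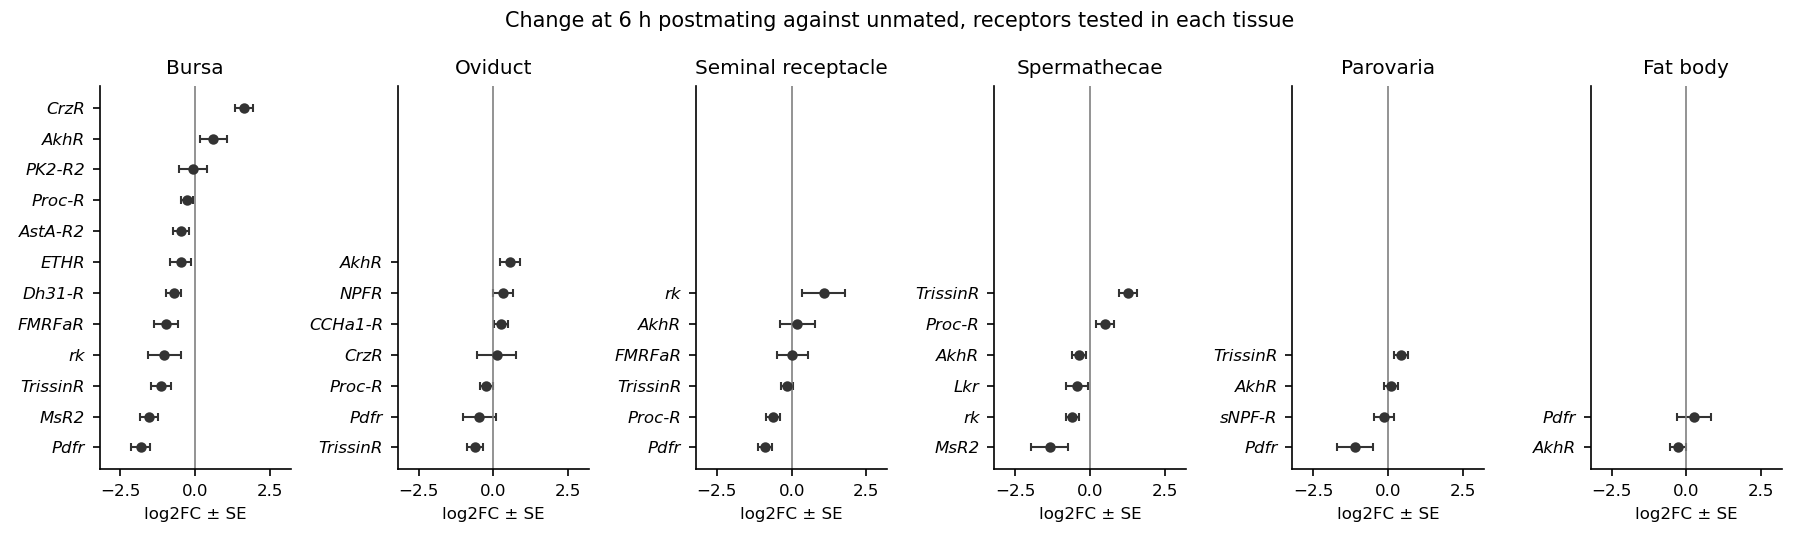
Change at 6 h against unmated (log2FC, bars are 1 SE from edgeR's quasi-likelihood fit) of the receptors tested in each of the 6 tissues, ordered within a tissue by size. In the bursa the lowest value is Pdfr at -1.83 and the highest CrzR at 1.63; none passed the adjusted threshold.

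The bursa held the largest receptor differences at 6 h. Pdfr had 1.15, 1.16, 0.614 and 0.580 CPM at 6 h, against 5.06, 4.89, 2.18 and 3.11 in unmated bursae. The groups did not overlap, which held for 8.93% of all bursal genes tested as lower and for 6.10% as higher at 6 h, and for 13.9% as lower at 24 h. The log2FC was -1.83 (SE 0.32), with an unadjusted p of 0.000108 in the fit across all genes and an adjusted p of 0.866. The ratio of 6 h to unmated was 0.232 in run 1 and 0.226 in run 2. At 24 h Pdfr had 0.575 to 1.72 CPM, a log2FC of -1.24 (SE 0.31) against unmated, again without overlap.

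MsR2 had 1.69, 2.17, 1.19 and 0.373 CPM at 6 h, against 5.99, 4.81, 3.86 and 3.98 in unmated bursae, a log2FC of -1.56 (SE 0.31, adjusted p = 1). At 24 h it had 2.09 to 4.30 CPM, with a log2FC of 1.41 (SE 0.31, adjusted p = 1) over 6 h and of -0.15 (SE 0.29) against unmated. CrzR went the other way: it had 3.34, 2.90, 1.92 and 2.82 CPM at 6 h, against 1.11, 1.00, 1.23 and 1.24 in unmated bursae. Its log2FC was 1.63 (SE 0.30, adjusted p = 1) without overlap, and at 24 h it had 1.11 to 2.23 CPM. FMRFaR had 1.31, 0.967, 0.736 and 0.995 CPM at 6 h, against 2.95, 2.73, 1.89 and 2.70 in unmated bursae, and 0.422 to 1.50 at 24 h. Its log2FC was -0.98 (SE 0.40) at 6 h and -1.03 (SE 0.39) at 24 h, with an adjusted p of 1 at both times.

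**Figure D4:**
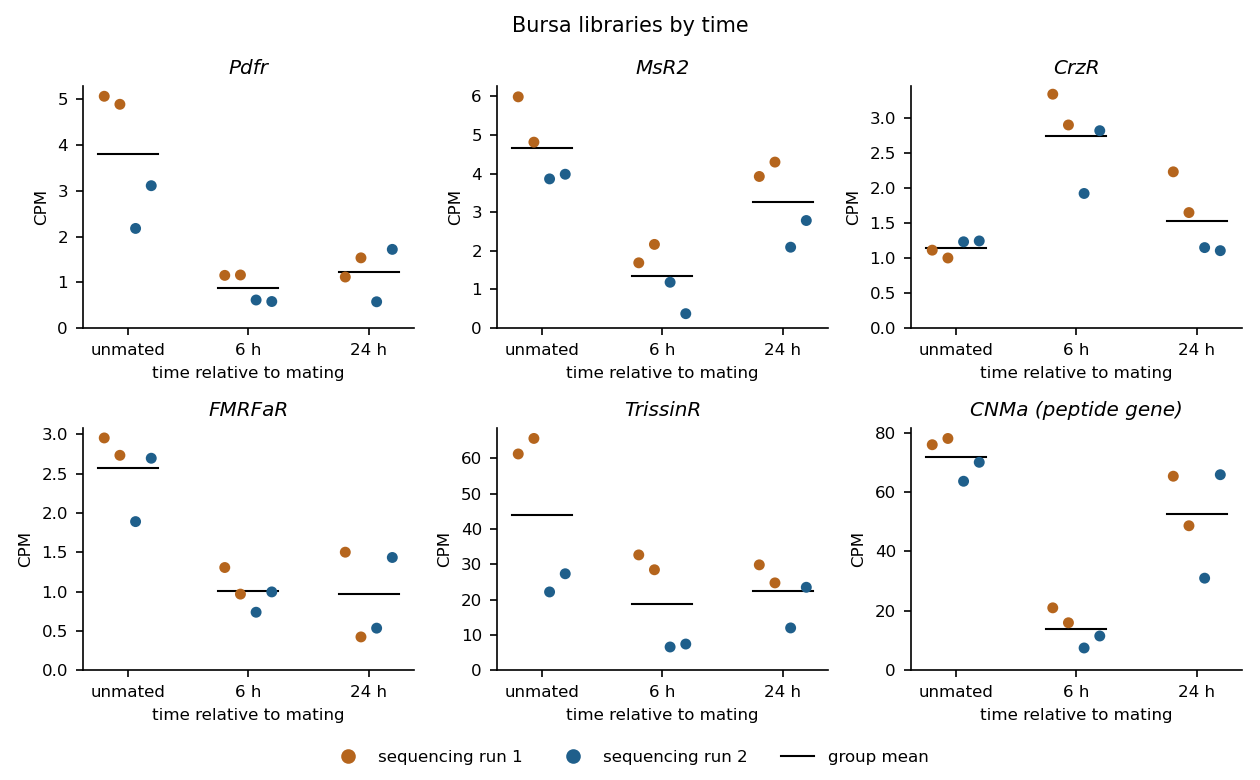
CPM of 5 receptors and of the peptide gene CNMa in each of the 4 bursa libraries at each time (unmated, 6 h and 24 h after mating), coloured by sequencing run, with the group mean as a bar. Pdfr, MsR2, FMRFaR and CNMa at 6 h lie below all unmated libraries and CrzR above them, while TrissinR at 6 h lies lower within each run but overlaps between runs.

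Less strict rules called some of these. A Benjamini-Hochberg adjusted p of at most 0.01 called CrzR, MsR2 and Pdfr at 6 h in the bursa (background 12.1% of genes) and MsR2 for 24 h against 6 h (background 6.45%). DESeq2 with a Bonferroni adjustment called the 3 at 6 h too (background 8.37%), and edgeR's likelihood ratio test called MsR2 and Pdfr (background 5.96%). Leaving out each bursa library in turn left the log2FC between -1.97 and -1.68 for Pdfr, -1.80 and -1.34 for MsR2 and 1.38 and 1.79 for CrzR. Pdfr and FMRFaR passed the 2 CPM filter in unmated bursae alone and CrzR at 6 h alone, so the filter favoured the direction of each. MsR2 passed it in unmated and 24 h bursae but not at 6 h, which favoured its lower 6 h value and its later rise.

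Several sums of genes listed as markers of other cell types were also lower in bursae at 6 h. The 10 neuron markers summed to 6.85 to 14.4 CPM at 6 h and 7.67 to 16.9 at 24 h, against 16.4 to 26.7 in unmated bursae. Of the 10, 1 was expressed at 6 h and 2 at 24 h, against 4 in unmated bursae, and VGlut was at 0 in all of them. The 5 glia markers summed to 223 to 583 CPM at 6 h and 475 to 1039 at 24 h, against 921 to 1060 in unmated bursae, mostly from nrv2, with wrapper at 0. Muscle marker sums overlapped, at 17431 to 42572 CPM at 6 h and 22075 to 39312 in unmated bursae. The 5 markers of renal tubules summed to 186 to 668 CPM at 6 h and 387 to 995 at 24 h, against 963 to 1368 in unmated bursae. Of these 5, 2 were expressed in bursae at each time, with Uro at 0 at 6 h and Uro and salt at 0 at 24 h. Tubule and glia sums averaged 238 and 21.6 CPM in the whole female, below those of unmated bursae and oviducts. Neuron and hemocyte sums, at 11.6 and 27.4 CPM in the whole female, were below them too. Unmated bursae and oviducts averaged 23.5 and 30.7 CPM for neurons and 400 and 915 for hemocytes. The tubule, glia, neuron and hemocyte lists may therefore not count such cells in bursae and oviducts. The 5 hemocyte markers had sums of 368 and 373 CPM in run 1 and 66.6 and 95.1 in run 2 at 6 h, against 496 and 481 in run 1 and 268 and 353 in run 2 in unmated bursae, with 129 to 409 at 24 h. The neuron, glia and tubule sums at 6 h did not overlap those of unmated bursae, and the hemocyte sums did not within a run. The part of nerve, glia and these other cells in the receptor differences was not tested.

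TrissinR had 6 h differences of opposite sign between tissues, none past the adjusted threshold. In the spermathecae it had 53.4, 39.9, 17.8 and 26.4 CPM at 6 h, against 17.8, 15.1, 10.7 and 9.20 in unmated spermathecae, a log2FC of 1.27 (SE 0.29, adjusted p = 1). Run by run the ratio was 2.84 and 2.22. Muscle marker sums of these libraries were 2001 and 1785 CPM in run 1 and 1056 and 1335 in run 2 at 6 h, against 1198 and 1064 in run 1 and 804 and 887 in run 2 in unmated spermathecae. In the bursa it had 32.6, 28.4, 6.54 and 7.38 CPM at 6 h, against 61.2, 65.6, 22.1 and 27.3 in unmated bursae, a log2FC of -1.15 (SE 0.34, adjusted p = 1) with ratios of 0.481 and 0.282. In the oviduct it had 60.6 and 50.2 CPM at 6 h, against 96.1, 110 and 110 in unmated oviducts (log2FC -0.62, SE 0.27, adjusted p = 1), a ratio of 0.505 within run 2. Both 6 h oviduct libraries of TrissinR lay below all unmated ones, as for 48.5% of all genes tested in the oviduct. Marker sums were also lower in the same 6 h oviducts. Glia summed to 2438 and 2826 CPM, against 3903 to 4438 in unmated oviducts, and neurons to 13.9 and 16.9, against 25 to 38.5. Hemocytes summed to 614 and 636 CPM, against 885 to 958, and tubules to 690 and 910, against 1168 to 1960. The part of these cells in the TrissinR differences was not tested. By 24 h the means were 17.9 CPM in the spermathecae, 22.5 in the bursa and 107 in the oviduct, where 1 library reached 177. That oviduct mean joins 1 library of run 1 with those of run 2. The run 1 library had marker sums of 79.5 CPM for neurons, 1516 for hemocytes and 41852 for muscle. The run 2 libraries had 26.4 and 21.8, 687 and 517, and 24209 and 23992 CPM. Its fat body sum was lower, at 6588 CPM against 14811 and 10777. The part of these cells in the 24 h mean was not tested. The seminal receptacle (log2FC -0.16, SE 0.20) and parovaria (0.43, SE 0.24) showed smaller differences at 6 h.

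Whether the 6 h change differed among the 6 tissues was tested as an interaction, and 0 of the 16 receptors passed, against a background of 1.05% of 8793 genes. An unadjusted p under 0.05 was reached by 3, CrzR, MsR2 and TrissinR, and by 23.0% of all genes. TrissinR came nearest (F = 7.75, unadjusted p = 2.23e-05 in the fit across all genes, adjusted p = 0.196). With the sequencing run as a covariate TrissinR passed (F = 10.7, adjusted p = 0.00652), as did 2.07% of genes, and with library totals it had an adjusted p of 1.

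**Figure D5:**
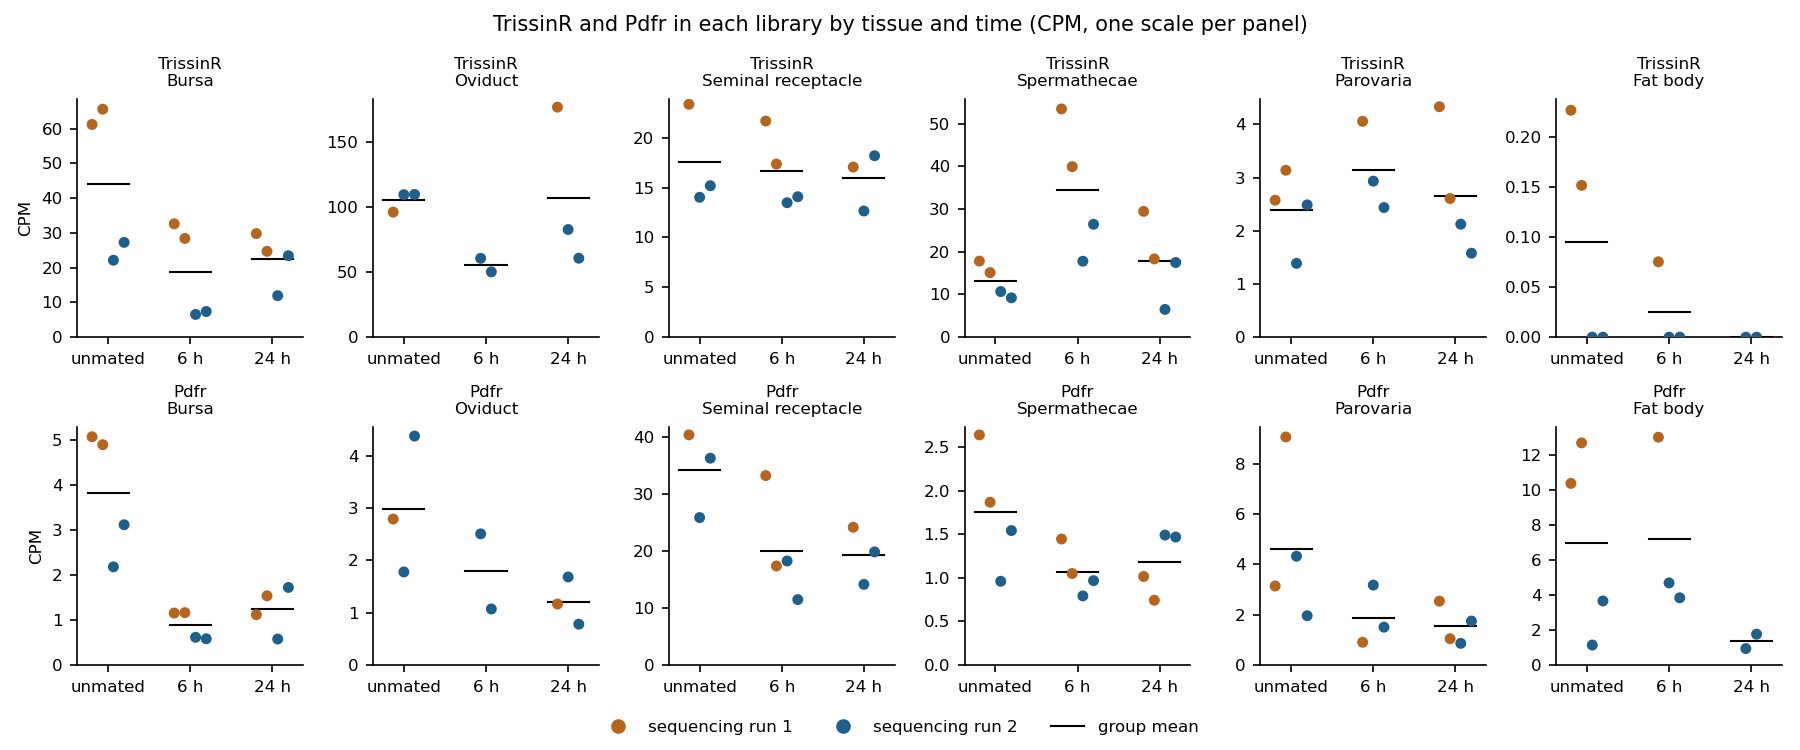
CPM of TrissinR (top row) and Pdfr (bottom row) in every library of the 6 tissues at 3 times, coloured by sequencing run, with the group mean as a bar; each panel has its own linear axis from 0. TrissinR at 6 h averages 34.4 CPM in the spermathecae, against 13.2 unmated, but 18.7 in the bursa, against 44.1 unmated; the mean of Pdfr at 24 h lies below the unmated mean in each tissue.

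Pdfr was tested in 5 tissues, and at 24 h none passed the adjusted threshold. In the bursa, oviduct and parovaria it had passed the 2 CPM filter in the unmated group alone, and in the fat body in the unmated and 6 h groups, so the filter favoured a lower value at 24 h there. In the seminal receptacle, where it was most abundant, it had 33.2, 17.3, 18.2 and 11.5 CPM at 6 h and 24.1, 14.1 and 19.8 at 24 h, against 40.3, 25.8 and 36.3 in unmated receptacles. The log2FC was -0.89 (SE 0.24) at 6 h and -0.78 (SE 0.27) at 24 h, both with an adjusted p of 1. Muscle marker sums of the seminal receptacle were 19515 to 35241 CPM at 6 h and 25715 to 29520 at 24 h, against 12914 to 18714 unmated, and glia sums 139 to 280 at 6 h and 205 to 334 at 24 h, against 286 to 371 unmated. Their part in the Pdfr values was not tested. The parovaria had -1.33 (SE 0.55), the oviduct -1.0 (SE 0.51) and the fat body -1.70 (SE 0.72) at 24 h, all with an adjusted p of 1. The fat body at 24 h had only run 2 libraries, with 0.934 and 1.75 CPM, against 1.14 and 3.65 in the unmated libraries of run 2.

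The remaining receptors had adjusted p values of 1 at both times. rk in the bursa varied with the run, with 5.57, 4.72, 0.368 and 0.788 CPM at 6 h, against 6.60, 6.47, 3.29 and 6.55 in unmated bursae, the second pair of each from run 2. In the spermathecae rk had 35.0, 28.0, 12.5 and 15.3 CPM at 6 h, against 27.5 to 34.5 in unmated spermathecae (log2FC -0.59, SE 0.21, adjusted p = 1), with the lower pair from run 2, and 20.5 to 63.2 at 24 h. sNPF-R in the parovaria had 14.6 to 21.5 CPM at 6 h and 7.56 to 49.9 at 24 h, against 15.6 to 28.1 unmated. CCHa1-R in the oviduct had 14.3 and 9.83 CPM at 6 h and 9.50 to 15.5 at 24 h, against 9.89 to 14.6 unmated. Proc-R in the seminal receptacle had 13.4 to 19.6 CPM at 6 h, against 22.1 to 26.9 unmated, without overlap, as in 2.67% of genes (log2FC -0.63, SE 0.24, adjusted p = 1). AkhR in the fat body had 27.1 and 36.9 CPM at 24 h, against 45.8 to 105 unmated, with a log2FC of -0.72 (SE 0.33, adjusted p = 1). The unmated fat body libraries of run 2, the run of both 24 h libraries, had 45.8 and 67.3 CPM.

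The genes of the peptides were examined with the same threshold. Of 31 peptide genes listed, the unmated bursa expressed 5, the oviduct 2, the seminal receptacle 2, the spermathecae 1, the parovaria 1 and the fat body 2, against 7 in the whole female. CNMa, which encodes the CNMamide peptide, was the only listed peptide, processing or signalling gene called after mating. Its bursa libraries had 21.0, 15.9, 7.44 and 11.5 CPM at 6 h, against 75.9, 78.0, 63.6 and 70.0 in unmated bursae, and 65.3, 48.6, 31.0 and 65.8 at 24 h. CNMa fell by 6 h (log2FC -2.09, SE 0.20, adjusted p = 0.00178) where 0.125% of genes fell, and was higher at 24 h than at 6 h (2.0, SE 0.20, adjusted p = 0.00274), where 0.0877% were higher, both without overlap. With library totals the adjusted p of CNMa was 0.102 and 0.729. In the oviduct CNMa had 8.17 and 7.57 CPM at 6 h, against 26.7, 26.5 and 37.4 in unmated oviducts (log2FC -1.64, SE 0.26, adjusted p = 1), a ratio of 0.246 within run 2. Lower values without overlap, as for CNMa, were found at 6 h for 48.5% of all genes tested in the oviduct. Its receptor, CNMaR, stayed below the threshold in every tissue library, with a highest value of 0.954 CPM in an unmated bursa.

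CCHa2, the gene of CCHamide-2, which is known as a fat body hormone, had means of 482, 295 and 291 CPM in the unmated, 6 h and 24 h fat body and was expressed in all 6 unmated tissues, but CCHa2-R never exceeded 0.246 CPM in a tissue library. Fat body marker sums averaged 7536 to 24213 CPM in the unmated FRT tissues, against 71199 in the fat body. The part of attached fat body in the CCHa2 values of the FRT tissues was not tested. Trissin, the ligand gene of TrissinR, had 0.570 CPM in the whole female and was not expressed in any tissue. Likewise Crz, CCHa1, NPF and Pdf were not expressed in any tissue, and Proc had a mean of 0.445 CPM in the unmated bursa. Ilp8, an insulin-like peptide whose receptor is Lgr3, had means of 9.25 CPM in the unmated seminal receptacle and 8.39 in the unmated bursa, against 78.2 in the whole female, while Lgr3 reached at most 0.401 CPM in a tissue library. sNPF had 1.61, 0.425, 0.245 and 0.290 CPM in bursae at 6 h, against 3.41, 3.85, 2.92 and 2.07 in unmated bursae (log2FC -2.10, SE 0.63, adjusted p = 1).

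Downstream genes were broadly present. Of 27 listed genes for G proteins, adenylyl cyclases, kinases and related signalling, the unmated bursa expressed 26, the oviduct 24, the seminal receptacle 23, the spermathecae 21, the parovaria 23 and the fat body 15, against 21 in the whole female. Of 7 genes of peptide processing enzymes, 5 or 6 were expressed in each unmated tissue, against 7 in the whole female.

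The other 20 receptors were expressed in no group. Of these, 18 stayed at or below 1 CPM in all 62 tissue libraries, among them AstA-R1 and TkR86C, the first for allatostatin A and the second for tachykinin-related peptides, which had no read in any of the 62. Receptors of this group include those for SIFamide, RYamide, CAPA peptides and crustacean cardioactive peptide. The 2 exceptions were Dh44-R2, a diuretic hormone 44 receptor, which exceeded 2 CPM in 10 libraries but never in 2 of one group, with a highest value of 6.32 in a seminal receptacle library at 24 h, and Lgr4, an orphan receptor, with 2.03 in 1 seminal receptacle library. Exons of both overlap another gene on the opposite strand, fdl and CG34234 over 536 and 551 bases of Dh44-R2 and CG12096 over 868 bases of Lgr4, and strand handling of the counts is not given in the sources used here. The fdl gene had a mean of 17.9 CPM and CG12096 of 12.2 CPM in unmated bursae. Without strand, reads of these receptors and of their antisense partners cannot be told apart. The other 18 were not detectable above 2 CPM at this depth, which does not show that no cell of the tissue carried them.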

How the data were processed

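RNA was sequenced in 64 pooled libraries of 19 groups. The authors aligned single-end reads to the FlyBase genome with HISAT2 2.1.0 and counted reads per gene with StringTie. The values they deposited were raw whole-number counts per gene, although the table is called CPM; strand handling is not given in the sources used here. Columns were assigned to groups from their names, 14 of them to a group without a replicate number. Coordinates and exon lengths came from the Ensembl annotation of the Release 6 assembly given for this work. With edgeR 4.0.16 in R 4.3.3, quasi-likelihood tests used TMM factors, no block and no covariate. Genes were tested if 2 or more libraries of a group exceeded 2 CPM, and a Bonferroni p of at most 0.01 was called (0.001 and log2FC of at least 2 against the whole female). Deviations from group means of same-numbered libraries correlated above 0.1 in all 4 pairs between 6 h and 24 h in the bursa (0.178 to 0.752) and spermathecae (0.272 to 0.712) and were taken as paired there, a pairing read from the data, with replicates 1 and 2 in run 1 and 3 and 4 in run 2. Same-numbered libraries thus shared a run, and these correlations cannot tell a pairing from an effect of the run. Replicate 4 had the lowest correlation in each and was not the best match of its number. Floors are 3 counts and cover counting error only. Libraries are pools, and p-values measure only the spread between them. The members and lists were chosen with earlier results of these data known. Every member could be named; other genes were named where called or where they are a named receptor's ligand. Alternatives included DESeq2 1.42.0, library totals, the sequencing run and leaving out each library. Tests were checked on simulated counts. Depth ranged from 12177864 to 26860149 counts per library.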

Additional observations from a re-analysis of the deposited data

Results flagged for a closer look

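rk in the unmated bursa had 1 library far from the others, at 3.29 CPM in run 2, while the other 3 had 6.47 to 6.60. The gap was 0.960 of the range, above Dixon's 95% critical value for 4 samples. It was 1 of 74 groups of receptors and peptide genes examined, and chance alone marks about 1 group in 20.

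TrissinR differed among the 6 tissues in its 6 h change when the sequencing run was a covariate (adjusted p = 0.00652), but not in the fit without it (adjusted p = 0.196).

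Proc-R had 1.89 to 2.07 CPM in all 4 spermathecal libraries at 6 h, above all 4 unmated ones (1.24 to 1.54). Of all genes tested for the spermathecae, 5.89% were higher without overlap. Proc-R had passed the 2 CPM filter there at 6 h and 24 h but not unmated, so the filter favoured a higher value. In the oviduct and seminal receptacle every 6 h library of Proc-R lay below every unmated one. The same held for 48.5% of all genes tested for the oviduct and 2.67% for the seminal receptacle. The 6 h change of the spermathecae exceeded that of the oviduct by 0.763 and that of the seminal receptacle by 1.15 on the log2 scale. Muscle marker sums of the spermathecae were 2001 and 1785 CPM in run 1 and 1056 and 1335 in run 2 at 6 h, against 1198 and 1064 in run 1 and 804 and 887 in run 2 in unmated spermathecae, and their part in the Proc-R difference was not tested. These pairs were not tested singly; over all 6 tissues the difference had an unadjusted p of 0.109 in the fit across all genes and an adjusted p of 1.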

How the results depend on the processing

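For the counts after mating, no receptor was called under size factors of DESeq2, all genes with a count, the run as a covariate, run 2 alone, library totals or any left-out library (0 to 0 in each tissue). Benjamini-Hochberg adjustment called 3 in the bursa at 6 h and 1 for 24 h against 6 h, DESeq2 called 3 at 6 h and the likelihood ratio test, chosen after seeing the data, 2. The log2FC of CrzR, MsR2 and Pdfr under those rules was 1.63, -1.56 and -1.83 with Benjamini-Hochberg, 1.66, -1.53 and -1.81 with DESeq2, and for MsR2 and Pdfr -1.56 and -1.84 with the likelihood ratio test. With the replicate number as a block the counts against unmated were 0 in the bursa and spermathecae at both times and in the oviduct and parovaria at 24 h. There the samples share only a number, since same-numbered libraries did not all correlate above 0.1, and in the bursa 7 receptors at 6 h and 6 at 24 h had an unadjusted p under 0.05, as had 51.2% and 15.6% of all genes. For 24 h against 6 h in the bursa and spermathecae, a pairing by number was read from the data, and no label states it. With that block, chosen after seeing the data, the count was also 0 and no call changed (CNMa in the bursa 2.0, adjusted p = 0.00266). No paired analysis was possible for the seminal receptacle, the fat body and comparisons with the 6 h oviduct or parovaria because numbers in their column names do not match the labels, which leaves fewer than 2 shared numbers that can be traced. Comparisons among tissues were not paired.

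Among unmated tissues 6 receptors were called in run 2 alone, and 10 to 13 without 1 library. Tissue-biased receptors at a Benjamini-Hochberg p of 0.001 numbered 7 for bursae, 2 for oviducts, 4 for seminal receptacles, 3 for spermathecae, 2 for parovaria and 2 for fat bodies, beside 17.2%, 6.59%, 12.8%, 10.7%, 13.4% and 17.2% of all genes. In 1 fit of all unmated libraries they numbered 3, 2, 2, 2 and 1 in the first 5 tissues, beside 10.2%, 8.48%, 9.35%, 6.74% and 7.03% of all genes. In the fat body the count was 0 with library totals, also chosen after seeing the data, and 0 to 1 without 1 library. For the 12 receptors expressed in a tissue but not in the whole female, the filter favoured calls of tissue bias. The interaction called 1 with the run as a covariate. At 1 CPM the oviduct expressed 12 receptors and the seminal receptacle and spermathecae 10 each; at 5 CPM the bursa expressed 4, the parovaria 2 and any tissue 10. Run 2 alone, where both unmated libraries of a tissue had to exceed 2 CPM, gave 6 for bursae, 2 for parovaria and 1 for fat bodies. Shares of all genes at 1 CPM, at 5 CPM and in run 2 alone are not given here. These counts of expressed receptors are therefore descriptions only. The causes were not tested. Of the 14 genes called in spermathecae at 6 h with library totals, 78.6% were higher, and of the 22 called with TMM, 54.5% were.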
